A study of Mus musculus with 51 samples.

Results

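Neutrophils sorted from the membrane that lines an inflamed air pouch were set against neutrophils still in the bone marrow, by open chromatin and by RNA. The comparison holds 9 of the 51 samples of the series: 2 membrane and 2 bone marrow ATAC-seq libraries, and 2 membrane and 3 bone marrow RNA libraries, all taken by their tissue labels. Of 47164 open-chromatin sites merged over the tissues, the authors' deposited lists hold 6202 that differ between membrane and marrow, 4058 increased and 2144 decreased in the membrane. RNA was compared over 12330 genes.

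A dorsal air pouch was raised in mice, and at 6 days it received 100 µg zymosan, particles made from the cell wall of yeast. Membrane and marrow were harvested 4 h after the injection, so both groups come from zymosan-challenged mice and no unchallenged marrow is part of the comparison. For ATAC-seq, which marks DNA that is open to a cutting enzyme, 75000 Ly6G+ cells were sorted per library, and the labels give no strain or genotype for these mice. For RNA, neutrophils were sorted from CX3CR1GFP Ly6GCre-tdTomato mice, in which the neutrophil gene Ly6G drives Cre and a red reporter and CX3CR1, a monocyte and macrophage gene, drives GFP, and they were sequenced by a Smart-seq2 method for small bulk samples. The labels give neither the age of the mice nor whether each library is 1 animal or a pool. Every test below thus measures only the spread between libraries, which in the RNA fit includes those of pouch exudate and blood.

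Neutrophils are made in the bone marrow, where maturing cells transcribe the genes of their antimicrobial granules in successive waves and then largely stop. Once in an inflamed tissue they meet microbial particles through receptors such as dectin-1 and Toll-like receptors, which signal through NF-kB, AP-1 and C/EBP factors, while interferons act through STAT and IRF factors on a separate set of genes. Chemokines and cytokines made by these cells recruit and instruct other leukocytes.

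Promoters of genes with a listed site at the start are printed first, because they carry the sequence side of the comparison. Irgm1 and Mefv were the 2 genes called in the RNA, Gbp2 and Cxcl3 had an increased site at the start, and Ngp and Retnlg a decreased one. Each line gives the 250 bases before the RefSeq gene start (GRCm38.p6), 5′ to 3′ on the strand of the gene. Capitals mark matches to the motif named for that gene, other motifs being left in lower case.

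Irgm1, chr11:48871421-48871670, minus strand, with 2 overlapping interferon response elements in capitals: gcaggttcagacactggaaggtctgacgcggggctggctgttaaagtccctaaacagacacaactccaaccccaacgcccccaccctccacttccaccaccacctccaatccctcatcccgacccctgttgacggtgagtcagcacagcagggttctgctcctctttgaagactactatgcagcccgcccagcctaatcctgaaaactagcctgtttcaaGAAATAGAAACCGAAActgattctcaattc

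Gbp2, chr3:142620413-142620662, plus strand, with an interferon response element in capitals, read on the other strand: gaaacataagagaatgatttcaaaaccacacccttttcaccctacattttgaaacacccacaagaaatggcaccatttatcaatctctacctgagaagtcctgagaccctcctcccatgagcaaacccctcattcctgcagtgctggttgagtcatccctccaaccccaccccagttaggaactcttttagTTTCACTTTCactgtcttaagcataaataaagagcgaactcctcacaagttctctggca

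Cxcl3, chr5:90785851-90786100, plus strand, with an NF-kB motif in capitals that matches on both strands: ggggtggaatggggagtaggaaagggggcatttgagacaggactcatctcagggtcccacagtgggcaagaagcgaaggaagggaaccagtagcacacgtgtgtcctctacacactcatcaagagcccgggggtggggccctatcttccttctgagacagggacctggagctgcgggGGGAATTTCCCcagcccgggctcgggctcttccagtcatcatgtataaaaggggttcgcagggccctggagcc

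Mefv, chr16:3718125-3718374, minus strand, with a C/EBP motif in capitals: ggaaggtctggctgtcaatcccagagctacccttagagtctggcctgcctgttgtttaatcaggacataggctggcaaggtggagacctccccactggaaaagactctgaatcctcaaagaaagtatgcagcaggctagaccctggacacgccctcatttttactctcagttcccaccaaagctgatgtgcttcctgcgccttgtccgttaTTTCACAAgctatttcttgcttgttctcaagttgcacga

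Ngp, chr9:110419558-110419807, plus strand, with 3 C/EBP motifs in capitals: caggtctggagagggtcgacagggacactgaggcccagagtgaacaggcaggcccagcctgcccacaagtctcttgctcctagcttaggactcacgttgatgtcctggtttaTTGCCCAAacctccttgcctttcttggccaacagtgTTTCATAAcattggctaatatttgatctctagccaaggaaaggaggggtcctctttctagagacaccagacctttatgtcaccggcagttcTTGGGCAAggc

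Retnlg, chr16:48872358-48872607, plus strand, with a C/EBP motif in capitals: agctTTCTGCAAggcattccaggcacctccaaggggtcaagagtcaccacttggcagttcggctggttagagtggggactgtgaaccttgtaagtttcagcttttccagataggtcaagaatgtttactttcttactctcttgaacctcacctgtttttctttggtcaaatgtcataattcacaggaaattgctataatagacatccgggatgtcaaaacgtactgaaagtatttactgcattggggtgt

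The interferon response element of Irgm1 lies 30 to 15 bases before the start and that of Gbp2 59 to 50 bases before it. The NF-kB match of Cxcl3 spans bases 73 to 63 before its start. Both interferon genes also hold an AP-1 match, 115 to 109 bases before the start in Irgm1 and 102 to 96 in Gbp2.

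Motifs were searched on both strands in every RefSeq promoter window of 250 bases before and 50 after a start. The letters were GAAA, 2 bases of any kind and GAAA again for the interferon response element, TGANTCA for AP-1, TTNNGNAA for C/EBP, TGTGGT for RUNX, GAGGAA for PU.1 and other ETS factors and CACGTG for the E-box, and NF-kB was searched by its consensus. None of these letter strings contains another, though matches can overlap in a window. An increased site overlapped 204 windows of 184 genes and a decreased site 357 windows of 326 genes, out of 20759 windows of 17054 genes. The interferon response element was present in 24.5% of the windows with an increased site, in 0.56% of those with a decreased site and in 3.37% of all windows. AP-1 letters were present in 23.5% of increased, 3.92% of decreased and 7.03% of all windows, and NF-kB letters in 18.6%, 8.40% and 9.26%. C/EBP letters, which are short and common, were present in 50.5% of increased, 31.1% of decreased and 37.1% of all windows. PU.1/ETS letters were found in 36.8%, 23.2% and 27.4%, RUNX letters in 16.2%, 13.2% and 14.8%, and the E-box in 5.88%, 8.68% and 7.93%. G and C made up 52.7% of the bases in increased, 62.0% in decreased and 56.4% in all windows, and the part of base composition in the motif shares was not tested. A match is a run of letters, not a bound factor.

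The RNA libraries held 15.2 and 12.4 M counted read pairs in the membrane and 18.6, 9.24 and 13.95 M in the marrow. Levels below are TMM-scaled CPM, read pairs of a gene relative to the library total. The 10 neutrophil markers summed to 106754 to 154235 CPM in the membrane and 234542 to 292658 CPM in the marrow. Of them 2 were higher and 8 lower in the membrane, and Camp was at 0 in 1 membrane library. Ly6g and S100a8 were present in all 5 libraries. Ly6g had 185 and 142 CPM in the membrane and 449, 508 and 510 CPM in the marrow. S100a8 had 71463 and 106901 CPM in the membrane and 135366, 186618 and 185774 CPM in the marrow. The 11 monocyte and macrophage genes summed to 1201 to 1233 CPM in the membrane and 1260 to 1308 CPM in the marrow, nearly all of it Ly6c2, at 1200.3 and 1219.7 CPM in the membrane and 1259.9, 1275 and 1308 CPM in the marrow. Of the others, Csf1r reached 12.5 CPM in one membrane library, and C1qa, Ccr2 and Cx3cr1 were at 0 in all 5. The 8 erythroid markers summed to 0 to 0.171 CPM in the membrane and 5.03 to 1582 CPM in the marrow, the 9 T and NK cell markers to 0.427 to 0.570 CPM in the membrane and 20.3 to 64.8 CPM in the marrow. The 9 dendritic cell and MHC class II genes summed to 180 to 251 CPM in the membrane and 0.172 to 129 CPM in the marrow. The 8 B cell markers summed to 0.407 to 151 CPM in the membrane, where Ighm made up the higher value, and 150 to 181 CPM in the marrow. In the membrane the 7 fibroblast markers summed to 0.940 to 4.40 CPM and the 5 endothelial markers to 2.99 to 16.5 CPM, against 0.301 to 4.51 CPM and 0.0861 to 10.95 CPM in the marrow. The part of these cells in the results was not tested. The marrow columns all carry the tag 100 in their names and the membrane columns the tag 300, whose meaning is not stated, so tissue and tag cannot be told apart in the RNA.

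The chromatin of membrane neutrophils differed from that of marrow neutrophils mostly away from gene starts. The increased sites made up 8.6% of the merged sites and the decreased ones 4.55%. Only 10.3% of the increased sites (419) lay within 1000 bp of a gene start, against 22.3% of the decreased sites (478) and 26.9% of all merged sites. Introns held 37.3% of the increased, 31.2% of the decreased and 28.8% of all sites. Space between genes held 44.9% of the increased sites, 35.3% of the decreased and 35.1% of all sites. The authors' deposited lists give a −log10 p per site and no size of change, and this value is called the site score below. The files do not say whether that p was adjusted, and the lowest score, 1.3014, lies just above that of a p of 0.05. Its median was 4.24 over increased and 3.21 over decreased sites. A score of 10 or more was reached by 677 increased and 124 decreased sites, and 20 or more by 170 and 9.

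**Figure D1:**
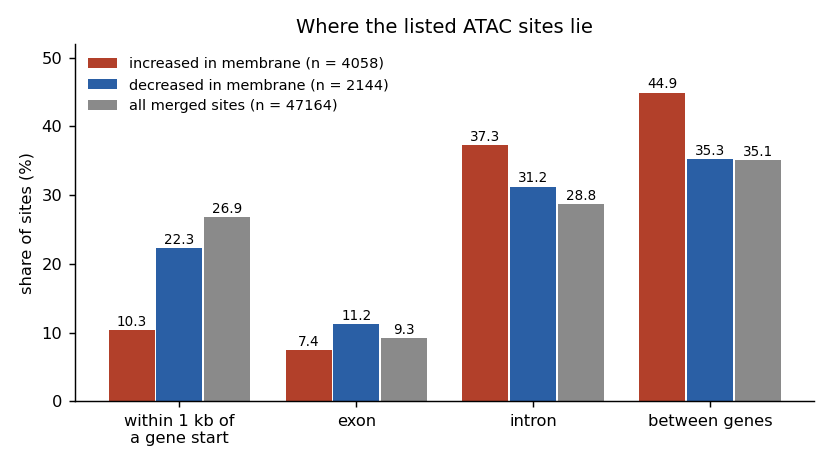
Position of the increased sites (4058), the decreased sites (2144) and all merged sites (47164), as the share of each set (%, bars) within 1 kb of a gene start, in exons, in introns and between genes. Increased sites lie at gene starts in 10.3%, less often than decreased sites at 22.3%.

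Of the 8 increased sites with the highest scores, 3 lay at the starts of interferon or chemokine genes, and a site at the start of Ifi204 was first (score 67.4, chr1:173766439-173767672). Ifi204 encodes an interferon-inducible DNA sensor. An intron of Msl2 held the next (65.5, chr9:101097519-101098027), followed by a site 5332 bp from the start of Mefv (55.0, chr16:3723192-3723721), the gene of the inflammasome protein pyrin. The start of Ccl3, a chemokine that attracts monocytes and neutrophils, scored 49.0 (chr11:83648940-83650079). The next 3 sites lay between genes on chromosome 8, between 63831 and 87809 bp from the nearest start, that of Tomm20, and scored 46.9, 46.5 and 46.4. The authors assign them to Irf2bp2, which encodes a cofactor of the factor IRF2. The start of Ifit3b, an interferon-induced antiviral gene, scored 46.1 (chr19:34607178-34608196).

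Decreased sites scored lower, and their leading loci were of another kind. The first lay in an intron of Itgb2l, an integrin beta chain gene (31.6, chr16:96439604-96440569), and the next 16746 bp from the start of Trat1 (31.0, chr16:48788481-48789136). The start of the protease gene Tmprss3 scored 30.4 (chr17:31196196-31196824), and a site 40506 bp from the start of Cdadc1 scored 23.3. A site shared by the starts of Anxa5, which encodes annexin A5, and 1810062G17Rik scored 21.6 (chr3:36475518-36476140). The start of Retnlg, which encodes resistin-like gamma of mature neutrophils, scored 20.3 (chr16:48872247-48872845), as did the start of Syne1, a nuclear envelope protein gene (chr10:5550038-5551159). Ranks 3 and 5 were sites on chromosome 18, nearest to Kctd1 (30.8) and Phax (26.7).

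Listed sites gathered around single genes. Within 50 kb of its start, the TNF receptor gene Tnfrsf1b had 13 increased and 0 decreased sites, with scores up to 27.6, and the adhesion scaffold gene Nedd9 had 11 increased sites. Ccl3 and its neighbour Ccl4, whose windows overlap, had 10 each, as had the interferon-induced Slfn2 and Slfn8. Around Il1rn, the gene of the interleukin-1 receptor antagonist, 8 increased sites lay on both sides of the outermost start, up to 28.8 kb downstream. By the authors' own assignment, which is not bound to 50 kb, the genes with the most increased sites were Irf2bp2 with 26, Trib1 with 19, Marcks with 18 and Cd44 and Lpp with 17 each. Within 50 kb of Irf2bp2, increased sites scored only up to 9.24, and the site over its start was in neither list. The high-scoring chromosome 8 sites named above lie outside that window. Decreased sites clustered at the resistin-like genes: Retnla had 10 within 50 kb, Retnlg 9 and Retnlb 7, in windows that overlap. Syne1 had 8. The window of Ltf, the lactoferrin gene, was mixed, with a decreased site at its start (3.38) and 3 others near it. Its 6 increased sites lay 18.2 to 43.8 kb downstream and scored up to 13.8. That window overlaps the one of the neighbouring gene Ccrl2, which had 2 increased sites at its start, scoring up to 13.7, and 7 within 50 kb.

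**Figure D2:**
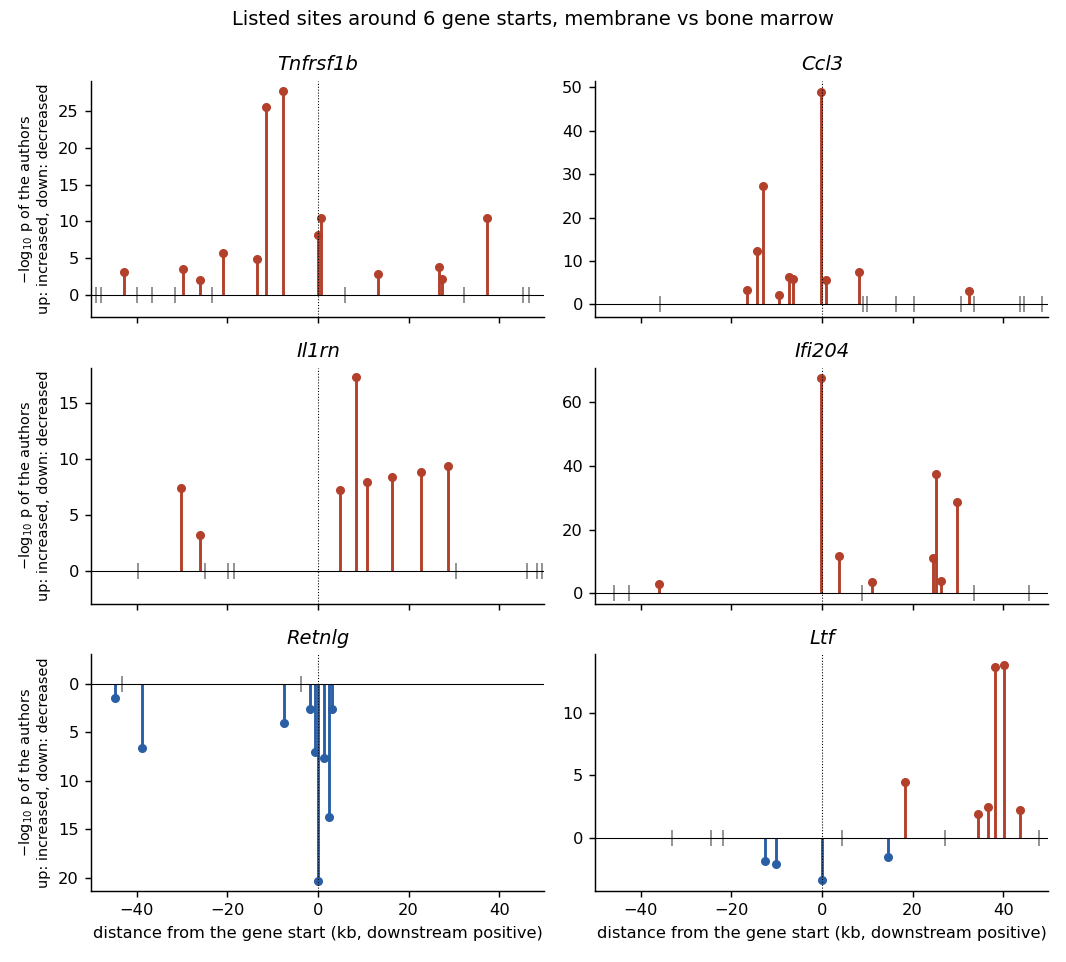
Listed sites around 6 gene starts, by distance from the start (kb, downstream positive) and site score (−log10 p of the authors; increased sites up in red, decreased sites down in blue; grey ticks mark merged sites in neither list). Tnfrsf1b carries 13 increased sites and Retnlg 9 decreased ones. The window of Ltf, which overlaps that of its neighbour Ccrl2, holds both kinds.

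Of 21278 protein-coding genes with coordinates, 388 (1.82%) had an increased site at a start and 491 (2.31%) a decreased one. Within 50 kb, 3535 genes (16.6%) had an increased and 2893 (13.6%) a decreased site.

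A comparison that shares no library with this one, pouch exudate against blood, listed many of the same increased sites. Of the 4058 sites increased in membrane over marrow, 2109 (51.97%) were also increased in exudate over blood, which is 74.4% of the 2834 sites on that list, whereas 6.01% of all merged sites are on it. Of the 2144 decreased sites, 458 (21.4%) were also decreased in exudate against blood, 42.2% of its 1086 sites, beside 2.30% of all merged sites. Sites listed in opposite directions numbered 2 and 1. The start of Ifi204 scored 51.3 in exudate against blood, the site near Mefv 44.3 and the start of Ccl3 30.9. Among decreased sites, Retnlg scored 10.8 and Tmprss3 6.21 there, while the Itgb2l and Anxa5 sites were not on its lists. Those 2 sites were decreased in blood against marrow, scoring 11.2 and 7.58, in a comparison that uses the same marrow libraries.

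MicroRNA loci with myeloid roles are given by sequence, since microRNA levels were not measured and the chromatin is the only readout. A listed site within 5000 bp was found at 29 (2.89%) of 1005 RefSeq hairpins for increased and at 13 (1.29%) for decreased sites. Capitals mark the seed, bases 2 to 8 of the mature strand, by which a microRNA pairs with its targets.

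mmu-miR-21a-5p: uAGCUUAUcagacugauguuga

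mmu-miR-23a-3p: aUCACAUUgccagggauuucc

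mmu-miR-27a-3p: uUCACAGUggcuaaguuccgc

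mmu-miR-24-3p: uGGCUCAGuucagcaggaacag

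mmu-miR-223-3p: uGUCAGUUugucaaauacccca

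Mir21a, a microRNA induced in many inflammatory settings, had 5 increased sites between 1982 and 4685 bp from its hairpin, with scores of 8.12, 15.7, 7.27, 5.84 and 13.9. In exudate against blood 3 of them were also increased, scoring 10.1, 9.23 and 8.52. Mir23a, Mir27a and Mir24-2 lie in 1 cluster on chromosome 8, whose 3 seeds differ, and shared 1 increased site 4056 to 4353 bp away that scored 25.7, and 11.2 in exudate against blood. Mir223, a neutrophil microRNA known to restrain granulocyte activation, went the other way, with 2 decreased sites on chromosome X 1613 and 2345 bp away that scored 7.33 and 5.85, and 1.59 and 2.10 in exudate against blood.

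In the RNA, 2 genes rose in membrane neutrophils by the test over all genes (0.0162% of 12330). Irgm1, an interferon-induced GTPase of cell-autonomous defence, had 1591 and 902 CPM in the membrane and 0 counts in each of the 3 marrow libraries (edgeR quasi-likelihood, adjusted p = 0.0245). Mefv had 549 and 166 CPM in the membrane and again 0 counts in each marrow library (edgeR, adjusted p = 0.0121). Against a floor of 3 counts over the marrow group, Irgm1 was at least 21769-fold and Mefv at least 6287-fold higher, bounds that cover counting error only. Both genes had increased sites at their starts, scoring up to 28.5 at Irgm1 and 8.38 at Mefv, and Mefv had 5 increased sites within 50 kb.

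No gene was called lower by that test (0% of 12330 by edgeR, with 839, or 6.8%, at an unadjusted p under 0.05, beside 798, or 6.47%, higher). The libraries of a group differed widely, at a biological coefficient of variation of 1.86. Without any 1 of the 3 marrow libraries the count of higher calls was 0, and without the second membrane library it was 11, so the 2 calls rest on each marrow library. DESeq2 called 355 genes higher and 1319 lower on the same counts, and edgeR on the membrane and marrow libraries alone called 93 and 35. With RLE scaling the genes at an unadjusted p under 0.05 split 636 higher to 1002 lower, and with total counts 622 to 1016. The median log2 difference over all tested genes with counts was −1.003 in the TMM scale, −1.46 with RLE and −1.47 with total counts, and gene differences are to be read against it.

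Genes were also described by whether the membrane libraries all lay above, or all below, the marrow libraries, with no test attached. In all, 1590 genes (12.9%) were higher and 2312 (18.8%) lower in this sense, the shares beside which the gene lists below are to be read. These counts are larger with fewer libraries, at 3347 higher without the first membrane library and 2812 higher and 3541 lower without the second.

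Genes with an increased site at the start had more RNA in the membrane. Of these 388 genes, 349 were tested, and 211 of the 388 (54.4%) were higher in both membrane libraries than in every marrow library, against 8.87% of all protein-coding genes. Only 18 were lower. Their median log2 difference was 3.26 over the 346 with counts. Genes with a decreased site at the start numbered 491, of which 301 were tested, 90 (18.3%) were lower and 35 higher, against 9.46% lower of all protein-coding genes. With a merged site in neither list at the start, 17.2% of genes were lower and 10.6% higher. These shares count untested genes too, and at these other open starts 7579 of 10404 genes were tested. Among tested genes only, 29.2% were lower at decreased starts and 23.4% at other open starts. The share of lower genes was thus close between these classes over all genes, but larger at decreased starts among tested genes. Genes with a decreased start had a median log2 difference of −3.04, or −2.40 with genes at 0 in one group set to their bound. Where the start held a merged site in neither list the median was −1.35, and where it held no site 0.28. The decreased class is less stable: its median was −5.68 without the second membrane library.

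**Figure D3:**
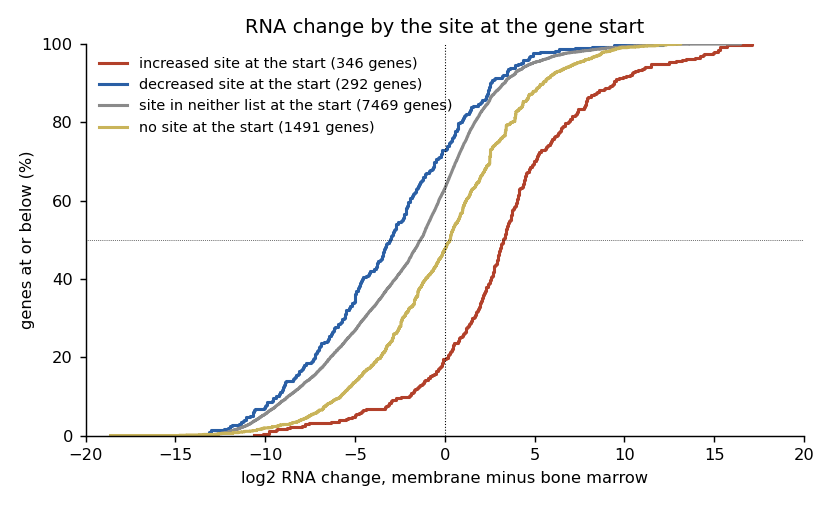
Cumulative share of tested genes (%, vertical axis) at or below each log2 RNA difference, membrane minus bone marrow (horizontal axis), for genes with an increased site at the start (346), a decreased one (292), a site in neither list (7469) and no site (1491). The curve of the increased class lies right of all others, with a median of 3.26.

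The share of genes with higher RNA was larger with more increased sites nearby. Among genes with increased and no decreased sites within 50 kb, 14.9% of those with 1 site were higher in both membrane libraries, 26.8% with 2 to 3, 44.8% with 4 to 7, and 13 of 24 genes (54.2%) with 8 or more. Those with 1 site were lower nearly as often, in 12.6%. With no listed site within 50 kb, 6.12% of genes were higher and 7.92% lower. For decreased sites the share with lower RNA was 15.9% with 1 site, 20.6% with 2 to 3 and 14 of 37 genes (37.8%) with 4 to 7. Neighbouring genes share sites and are not independent.

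Interferon stimulated genes, the longest list, gave the largest number of genes on both readouts. Of 29 list members with coordinates, 22 had an increased site at the start and 0 a decreased one. Of the 31 members, 30 were tested, 28 were higher in both membrane libraries and 0 lower, and the median log2 difference was 6.98, against −1.003 over all genes. Gbp2, a guanylate-binding GTPase that acts on pathogen vacuoles, had 3288 and 1785 CPM in the membrane and 0, 0.177 and 0.0572 CPM in the marrow. Rsad2, which encodes the antiviral enzyme viperin, had 7966 and 6448 CPM in the membrane and 33.5, 3.18 and 0.0572 CPM in the marrow, a log2 difference of 9.20 ± 2.66 (SE; edgeR, adjusted p = 0.243). Their groups stood far apart, and the marrow libraries differed among themselves. Ifit1, an RNA-binding antiviral protein gene, had 11646 and 4818 CPM in the membrane and 0.516, 29.5 and 0 CPM in the marrow. Ifi204 had 2549 and 2057 CPM in the membrane, against 0, 19.3 and 0 CPM in the marrow. Isg15, a ubiquitin-like modifier gene, was uneven within the membrane, at 1796 and 193 CPM, against 1.72, 0 and 2.63 CPM in the marrow.

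The schlafen gene Slfn4, interferon-induced in myeloid cells, was not silent in the marrow. It had 27134 and 18482 CPM in the membrane and 923, 962 and 732 CPM in the marrow, a log2 difference of 4.71 ± 0.99 (SE; edgeR, adjusted p = 0.150). The members that were not higher were Mx1, Mx2 and Ifi203, at most 15.1 CPM in any library. Ifi204, Ifi207, Ifi211 and the Slfn and Ifit genes have near-identical neighbours, and counts of uniquely mapped reads may be split unevenly among them.

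Chemokine genes followed. Of 14 members, 10 were tested, 8 were higher and 0 lower, and 5 had an increased site at the start. Ccl4 had 12988 and 10024 CPM in the membrane and 0, 18.5 and 17.1 CPM in the marrow, a log2 difference of 9.92 ± 3.44 (SE; edgeR, adjusted p = 0.338). Ccl3 had 2815 and 2488 CPM in the membrane and 0, 30.4 and 4.00 CPM in the marrow. Cxcl3, a ligand of the neutrophil receptor CXCR2, had 2095 and 1973 CPM in the membrane against 0, 23.4 and 3.89 CPM in the marrow, and the site over its printed promoter scored 40.01. Cxcl10, which attracts T cells, had 5128 and 5697 CPM in the membrane and 52.1, 0 and 0.0572 CPM in the marrow. In each of these genes both membrane libraries lay above all marrow libraries. Cxcl2 had a higher base, with 4357 and 2979 CPM in the membrane and 179, 269 and 287 CPM in the marrow, and 7 increased sites within 50 kb but none at its start. Ccl2 and Cxcl16 had 0 counts in all 5 libraries.

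Among cytokine genes, 9 of 20 members were higher and 1 lower (15 tested), with an increased site at 7 starts of 19. Il1b, the gene of interleukin-1 beta, had 9725 and 6053 CPM in the membrane and 0.0430, 96.5 and 47.5 CPM in the marrow, a log2 difference of 7.36 ± 1.66 (SE; edgeR, adjusted p = 0.161). Its antagonist Il1rn had 14501 and 11548 CPM in the membrane and 310.5, 337 and 308 CPM in the marrow, where it was thus already present, a log2 difference of 5.35 ± 1.22. The decoy receptor gene Il1r2 had 13414 and 6702 CPM in the membrane and 1756, 1317 and 2174 CPM in the marrow. Agonist, antagonist and decoy receptor were thus all higher in both membrane libraries. Tnf had 434 and 241 CPM in the membrane and 1.81, 43.8 and 12.2 CPM in the marrow. Il18 had 251 and 416 CPM and Il15ra 112 and 51.2 CPM in the membrane, and both had 0 counts in the marrow. Tnfsf14, which encodes LIGHT, was the member that was lower, at 0 in both membrane libraries and 16.6, 8.92 and 0.572 CPM in the marrow, although 4 increased sites lay within 50 kb.

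Some cytokine loci were listed as more open with no RNA to match. Il10, the gene of an anti-inflammatory cytokine, had 7 increased sites within 50 kb, with scores up to 7.66, and 0 counts in all 5 libraries. Il23a, a subunit gene of interleukin-23, had an increased site of score 12.99 at its start and at most 0.0854 CPM in any library.

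Of 21 genes that sense microbes and zymosan, 15 were higher, 5 overlapped and 1 was lower, and 11 had an increased site at the start. Clec7a, which encodes dectin-1, the receptor of zymosan glucan, had 1469 and 1593 CPM in the membrane and 28.1, 114 and 18.8 CPM in the marrow, a log2 difference of 4.83 ± 1.04 (SE; edgeR, adjusted p = 0.150). Clec4d, a receptor of fungal mannan, had 7895 and 8133 CPM in the membrane and 236, 553 and 348 CPM in the marrow. Cd14, the co-receptor of Toll-like receptor 4, had 27102 and 16772 CPM in the membrane and 999.6, 229 and 509.5 CPM in the marrow. The inflammasome gene Nlrp3 had 244 and 174 CPM in the membrane against at most 3.09 CPM in the marrow. Its adaptor gene Pycard was the lower member, at 0 and 4.61 CPM in the membrane and 67.7, 55.0 and 48.9 CPM in the marrow. Aim2 had an increased site at its start (3.49) and 0 counts throughout.

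**Figure D4:**
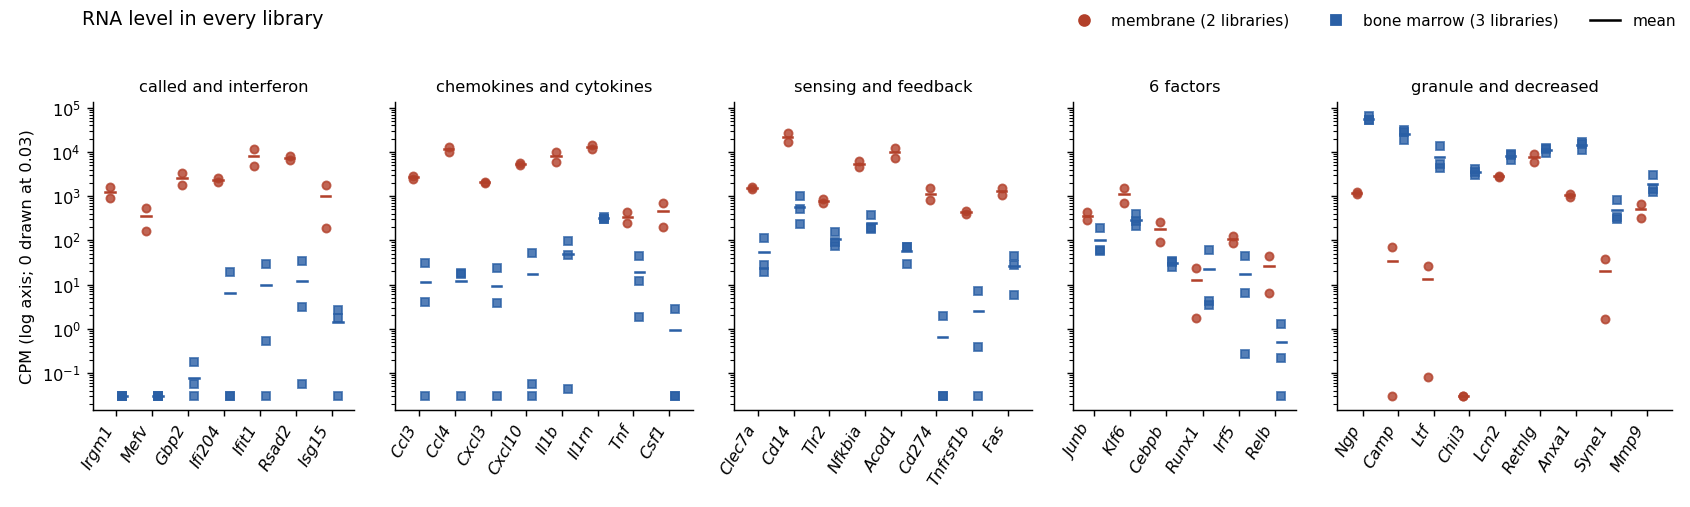
RNA level (CPM, log axis, 0 drawn at 0.03) of genes named in the text in the 2 membrane libraries (circles) and 3 bone marrow libraries (squares), with the group mean as a bar. Interferon, chemokine and sensing genes lie higher in both membrane libraries, Runx1 overlaps, and Ngp, Camp and Ltf lie lower.

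NF-kB pathway genes were higher in 15 of 17 members (16 tested), 0 were lower, and 8 had an increased site at the start. The inhibitor gene Nfkbia, itself an NF-kB target, had 6289 and 4642 CPM in the membrane and 374, 191 and 177 CPM in the marrow, a log2 difference of 4.46 ± 1.15 (SE; edgeR, adjusted p = 0.185). Of the subunit genes, Rel had 444 and 259 CPM in the membrane and 20.8, 24.6 and 6.92 CPM in the marrow. Among AP-1 and immediate early genes 12 of 21 members were higher and 1, Fosl1, lower. Fosl1 had 0 and 0.256 CPM in the membrane and 6.06, 40.9 and 14.98 CPM in the marrow, and a decreased site at its start (4.89).

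Inhibitors of these pathways stood high together with their activators. Of 14 feedback inhibitor genes, 11 were higher and 0 lower, and 6 had an increased site at the start. Cd274, the gene of the checkpoint ligand PD-L1, had 1494 and 797 CPM in the membrane and 0, 0 and 1.94 CPM in the marrow, a log2 difference of 10.76 ± 3.30 (SE; edgeR, adjusted p = 0.281). Acod1, the enzyme gene of the anti-inflammatory metabolite itaconate, had 12224 and 7343 CPM in the membrane and 69.8, 28.9 and 70.9 CPM in the marrow, and its start scored 31.0. Tnfrsf1b, with its 13 increased sites, had 467 and 403 CPM in the membrane and 0.387, 7.24 and 0 CPM in the marrow.

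Of 14 hypoxia response genes 10 were higher and 0 lower, and 2 had an increased site at the start, which 1.82% of all protein-coding genes had. Hif1a, the oxygen-regulated factor, had 1537 and 1167 CPM in the membrane and 94.0, 63.5 and 121 CPM in the marrow, a log2 difference of 3.86 ± 1.04 (SE; edgeR, adjusted p = 0.200). Egln3, an oxygen sensor and target of that factor, had 336 and 88.3 CPM in the membrane and 0 counts in the marrow. Glycolysis genes differed by less, 10 of 17 higher and 0 lower at a median log2 difference of 1.24. Ldha, lactate dehydrogenase, had a decreased site at its start (9.57) and overlapping libraries.

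Survival and death genes were higher in 9 of 15 members, with 0 lower. The death receptor gene Fas had 1554 and 1034 CPM in the membrane and 5.89, 44.3 and 27.7 CPM in the marrow, and its start scored 26.8. Mcl1, which encodes the main survival protein of neutrophils, had 993 and 1341 CPM in the membrane and 538, 294 and 341 CPM in the marrow. The paralogs Bcl2a1a, Bcl2a1b and Bcl2a1d were each higher, but their reads cannot be assigned with certainty.

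Receptors for chemoattractants differed less, 5 of 10 members being higher and 0 lower. Ccr1 had 3777 and 3182 CPM in the membrane and 756, 494 and 850 CPM in the marrow, with 6 increased sites within 50 kb that scored up to 30.0. Fpr2 had an increased site at its start (6.48) and overlapping libraries. Of 14 adhesion genes 6 were higher (42.9%) and 2, Itgb2 and Vcl, lower (14.3%), beside 12.9% higher and 18.8% lower of all tested genes. Cd44, the hyaluronan receptor, had 2057 and 1448 CPM in the membrane and 314, 419 and 248 CPM in the marrow, with an increased site at its start (8.03). Itgam, the CD11b gene, overlapped between the groups, at 328 and 641 CPM in the membrane and 589, 363 and 497 CPM in the marrow.

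**Figure D5:**
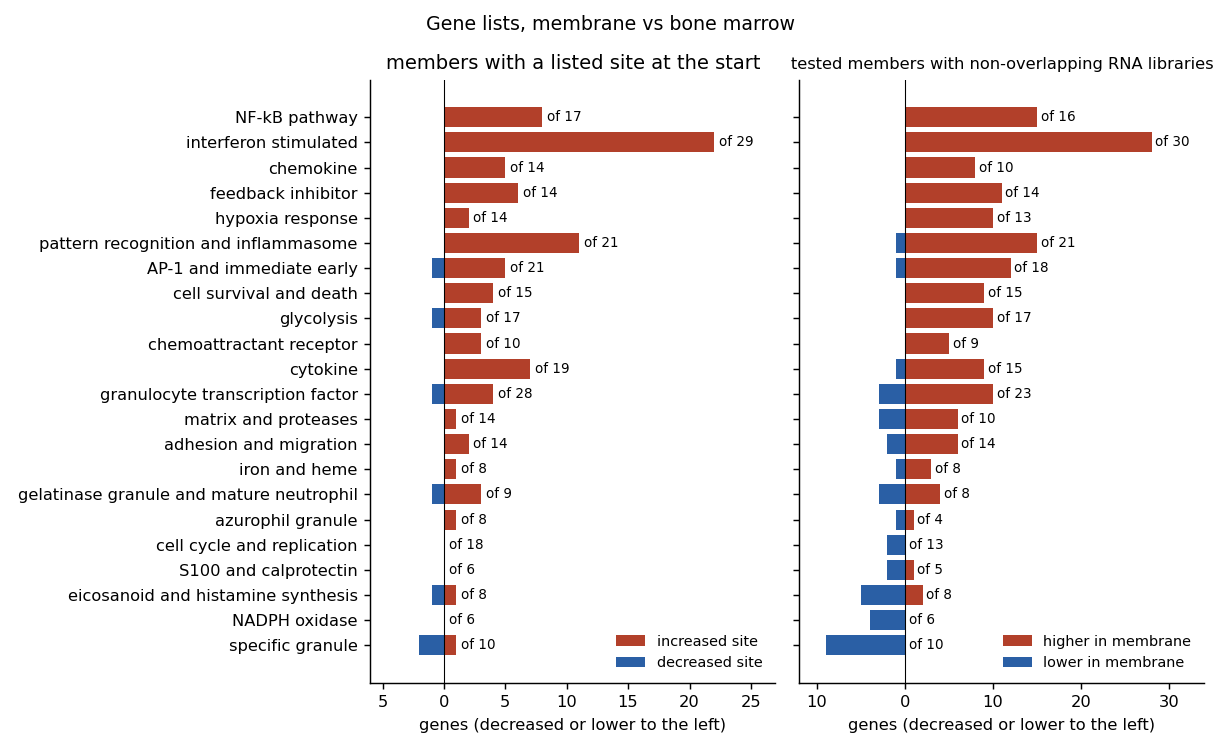
For each gene list, the number of members with an increased or decreased site at the start (left, of members with coordinates) and the number of tested members whose RNA libraries did not overlap, higher or lower in the membrane (right). Interferon stimulated genes, the longest list, have the highest counts on both sides, with 22 of 29 and 28 of 30, NF-kB pathway genes are higher in 15 of 16, and specific granule genes lie lower in 9 of 10.

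Among 28 granulocyte transcription factors, 23 were tested, 10 were higher and 3 lower, and the 6 that the study knocked out in cultured neutrophils differed from each other. Klf6 had 1526 and 708 CPM in the membrane and 392, 210 and 280 CPM in the marrow, a log2 difference of 1.92 ± 0.86 (SE; edgeR, adjusted p = 0.372). Cebpb had 263 and 92.5 CPM in the membrane and 25.4, 33.3 and 33.0 CPM in the marrow (2.54 ± 1.13), and Junb 428 and 289 CPM against 191, 56.3 and 62.0 CPM (1.80 ± 0.96). The membrane libraries of these 3 genes lay above all marrow libraries, and none had a listed site at the start. Klf6 had 5 increased sites within 50 kb, Cebpb 4 and Junb 2. Irf5 had an increased site at its start (9.09), with 87.9 and 125 CPM in the membrane and 44.9, 0.265 and 6.46 CPM in the marrow. Relb had no listed site within 50 kb, with 6.44 and 45.4 CPM in the membrane and 0.215, 0 and 1.26 CPM in the marrow. The membrane libraries of Irf5 and Relb thus also lay above all marrow libraries.

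Runx1 split between the readouts. An increased site (4.07) lay at another of its starts, while the site over its outermost start was in neither list. Within 50 kb of its starts lay 7 increased and 1 decreased site. Its RNA overlapped, at 1.71 and 23.1 CPM in the membrane and 59.4, 4.33 and 3.37 CPM in the marrow. Its log2 difference was −0.85 ± 2.07, and it turned to 1.68 without the first marrow library. Mxd1, an antagonist of MYC, had 6858 and 3943 CPM in the membrane and 916, 569 and 585 CPM in the marrow (2.97 ± 0.61; edgeR, adjusted p = 0.150). Ets1 stood at 0.163 and 0.0854 CPM in the membrane and 58.8, 46.9 and 71.5 CPM in the marrow.

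Specific granule genes were lower in the membrane, 9 of 10 members, with 0 higher and a median log2 difference of −4.22. In bulk libraries fewer cells of a type and less RNA per cell cannot be told apart, and these genes are known to be transcribed in immature marrow neutrophils. Ngp, which encodes neutrophilic granule protein, had 1226 and 1137 CPM in the membrane and 52122, 63352 and 53823 CPM in the marrow, a log2 difference of −5.58 ± 1.38 (SE; edgeR, adjusted p = 0.182). Camp, the cathelicidin gene, had 0 and 69.0 CPM in the membrane and 18898, 30577 and 28609 CPM in the marrow. Chil3, a chitinase-like protein gene, had 0 counts in both membrane libraries and 2929.7, 3441 and 4137 CPM in the marrow, at least 27551-fold lower in the membrane. Ltf had 0.0815 and 26.8 CPM in the membrane and 13439, 4429 and 5259 CPM in the marrow. The membrane libraries lay below the marrow in each, and only Ngp and Ltf had a decreased site at the start.

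Genes of the later gelatinase granule and of mature neutrophils were split, with 4 of 9 higher, 3 lower and 8 tested. The collagenase gene Mmp8 had 2187 and 1604 CPM in the membrane and 8433, 7677 and 7673 CPM in the marrow. The G-CSF receptor gene Csf3r was on the higher side, with 1312 and 567 CPM in the membrane and 378, 254 and 210 CPM in the marrow. Retnlg, the member with a decreased start, differed little in RNA, with 5933 and 9054 CPM in the membrane and 9460, 12530 and 11549 CPM in the marrow, a log2 difference of −0.58 ± 0.57. The azurophil granule genes Mpo, Elane, Ctsg and Ms4a3, made by promyelocytes, were absent or nearly so from all 5 libraries, at most 0.172 CPM, and of the 8 azurophil members 1 was higher and 1 lower. Of 6 S100 genes 1 was higher and 2 lower. Only 4 azurophil and 5 S100 genes were tested, and of all tested genes 12.9% were higher and 18.8% lower. Of 18 cell cycle genes 13 were tested, 0 were higher and 2, Mki67 and Mcm4, lower, a share below the 18.8% of all tested genes that were lower. The median log2 difference of the 12 with counts was nevertheless −7.44, or −4.93 with genes at 0 in one group set to their bound. Levels were low, and the list summed to 1.06 to 56.4 CPM in the membrane and 47.9 to 232 CPM in the marrow. Mki67, a marker of dividing cells, had 0 and 0.256 CPM in the membrane and 35.0, 30.7 and 29.0 CPM in the marrow.

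Of 6 NADPH oxidase genes, which make the respiratory burst, 4 were lower and 0 higher. The median log2 difference of the list, −1.002, was however close to the −1.003 over all tested genes with counts. Cybb, the catalytic subunit, had 112 and 152 CPM in the membrane and 1244, 809 and 825 CPM in the marrow, a log2 difference of −2.86 ± 1.16 (SE; edgeR, adjusted p = 0.372).

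Lipid mediator genes split by enzyme. Ptgs2, the inducible cyclooxygenase, had 389.5 and 448 CPM in the membrane and 0, 16.2 and 1.43 CPM in the marrow, with an increased start (19.6). The constitutive Ptgs1 had 0.0815 and 0.171 CPM in the membrane and 135, 11.3 and 11.7 CPM in the marrow, and Lta4h, the last enzyme of leukotriene B4 synthesis, 0 and 0.0854 CPM against 283, 242 and 289 CPM. In all, 2 of 8 members were higher and 5 lower. Hdc, which makes histamine, had 5500 and 3003 CPM in the membrane and 924, 526 and 385 CPM in the marrow.

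Iron and matrix genes were mixed. The ferritin heavy chain gene Fth1 had 50719 and 52264 CPM in the membrane and 4793, 3870 and 4937 CPM in the marrow, a log2 difference of 3.51 ± 0.73 (SE; edgeR, adjusted p = 0.150), and 3 of 8 iron genes were higher with 1 lower. Of 14 matrix and protease genes 10 were tested, 6 were higher and 3 lower. The lower share was 12.5% of iron and 30% of tested matrix genes, beside 18.8% of all tested genes. Thbs1, thrombospondin, had 18840 and 13733 CPM in the membrane and 802, 1147 and 1157 CPM in the marrow, while its locus held 3 decreased sites within 50 kb. Spp1, the osteopontin gene, had 8045 and 9834 CPM in the membrane and 0, 63.4 and 58.2 CPM in the marrow, with 2 increased sites within 50 kb and none at its start.

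Sites and RNA pointed in opposite directions at a minority of starts. Of the 388 genes with an increased start, 18 had lower RNA in both membrane libraries, among them Lcn2 (start score 2.59), the gene of the iron-binding protein lipocalin-2, at 2721 and 2923 CPM in the membrane and 6625, 8482 and 9157 CPM in the marrow. Mmp9 (7.13), the gelatinase, had 681 and 319 CPM in the membrane and 3077, 1452 and 1259 CPM in the marrow. Conversely, Mafk (decreased start, 5.66), a partner of the NRF2 factor, had 80.4 and 143 CPM in the membrane and 21.7, 1.77 and 6.86 CPM in the marrow. Where both readouts were lower, Anxa1, the gene of the pro-resolving protein annexin A1, had 962 and 1143 CPM in the membrane and 11032, 16557 and 14773 CPM in the marrow (−3.75 ± 1.12; edgeR, adjusted p = 0.264) and a decreased start that scored 10.3. Syne1 had 1.63 and 38.5 CPM in the membrane and 813, 343 and 304 CPM in the marrow, and Itgb2l 0 and 14.4 CPM against 388, 195 and 397 CPM. These genes were named for their direction, so their counts carry no test.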

How the data were processed

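ATAC-seq sites and RNA counts of sorted mouse neutrophils were used as the authors deposited them. Per the submitters' processing notes, ATAC reads were handled with cutadapt, Bowtie2, MACS2, deepTools and DESeq2 on mm10, and RNA reads with STAR and featureCounts. The differential site lists hold a −log10 p per site as deposited by the authors, and whether the ATAC libraries were pooled for peak calling is not given in the sources used here. Merged sites carry a score of unstated scale and other values, a peak number and a width, as deposited by the authors; neither enters a result. RNA values are counts of read pairs per gene, made by the authors with featureCounts 1.5.0-p2 without strand and from uniquely mapped reads, per the file headers, so antisense, overlapping and near-identical genes are uncertain.

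All 15 RNA libraries of the 4 tissues entered 1 edgeR 4.0.16 quasi-likelihood fit (R 4.3.3) with TMM scaling and filterByExpr (count minimum 10, total 15), Benjamini-Hochberg adjusted over 12330 genes at 0.05. Blank rows numbered 0. Each SE printed with a log2 difference is the size of that difference divided by the square root of the F statistic of the edgeR test. Listed sites were assigned to a gene start when an edge lay within 1000 bp of a start from the count table or RefSeq, and to a gene within 50000 bp. The 17054 of 21278 protein-coding genes (80.1%) with a RefSeq start gave the promoter windows. Sites are on mm10 and promoters on GRCm38.p6. Groups at 0 got a floor of 3 counts over the group. Named genes were the called genes, those with the largest differences or site scores, and list members. Alternatives were other scalings, filters, tools, windows and left-out libraries, with limma 3.58.1 and DESeq2 1.42.0. Gene starts of the count table alone were tried after seeing the data. Members and lists were chosen with earlier results of these data known. Statistics were tested on simulated data. The cultured-cell tables were not used here. Intervals and floors cover counting error only.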

Additional observations from a re-analysis of the deposited data

How the results depend on the processing

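Calls in the RNA depended most on the model. Against 2 genes higher and 0 lower, 115 and 25 were called with no low-count filter, 355 and 1319 with DESeq2 1.42.0, 182 and 590 with limma voom, and 93 and 35 when only membrane and marrow libraries were fitted. The replicate block by column tag and number gave 193 and 80. Of 11 pairs of libraries from different tissues with the same tag and number, 1 had deviations correlated over 0.1, as had 3 of 70 other pairs. No membrane library shares its tag with a marrow library, so this check cannot decide on pairing between the 2 groups compared. RLE and total-count scaling left 2 and 0. Leaving out each library in turn gave 0 to 11 higher and 0 to 0 lower, and Irgm1 and Mefv lost the call without each marrow library. Libraries that did not overlap numbered 1893 to 3347 higher and 2881 to 3541 lower on leaving out each library, with 2812 higher without the second membrane library. At a site score of at least 5, 1711 increased and 571 decreased sites were left. The share of increased sites at gene starts was 7.37% for a window of 500 bp, 14.1% for 2000 bp and 8.48% with starts of the count table only, and of decreased sites 20.2%, 25.8% and 20.2%, or 24.8% at a score of at least 2. Genes with an increased start had a median log2 difference of 2.78 with RLE, 2.76 with total counts, 2.78 with DESeq2, 5.11 with the replicate block, 3.76 at 500 bp and 2.86 at 2000 bp, and 2.85 to 3.55 on leaving out each library. Genes with a decreased start had −3.48 with RLE, −3.47 with total counts, −3.45 with DESeq2, −1.92 with limma voom and −3.42 with only these groups, and −5.68 to −2.47 on leaving out each library, with −2.52 without the second marrow library. Genes with a listed site numbered 1168 increased and 1040 decreased within 10000 bp, and 5752 and 4797 within 100000 bp. The shared share of decreased sites was 23.5% at a score of at least 2 in both lists. Of 720 values for 60 named genes in 12 settings, 564 kept direction and call, 149 gained a call, 6 lost it and 1 reversed, that of Runx1 without the first marrow library (1.68). Only Irgm1 and Mefv had a call in the main fit, so only they could lose one. For the other named genes, keeping the call means that they stayed uncalled. The cause of the shifts between settings was not tested. With 2 against 3 RNA libraries and no size of change in the site lists, small differences could not be resolved.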
